A study of Mus musculus with 7 samples.

Results

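Blood vessels grow by angiogenesis, the sprouting of new vessels from existing ones, and by vasculogenesis, their assembly from single precursor cells. Endothelial cells line the vessels and respond to secreted ligands such as the vascular endothelial growth factors (VEGF), to guidance signals and to low oxygen, and matrix-degrading enzymes open the path for a sprout. In the testis the vessels run in the interstitium between the seminiferous tubules, beside the steroid-producing Leydig cells, and no vessels enter the tubules, where the germ cells develop. The genes described here are the coding genes that carry such a function in the array annotation: a Gene Ontology biological process that contains "angiogenesis", "vasculogenesis", "blood vessel" or "endothelial", and no process that contains "cell adhesion", "immune", "inflammatory", "steroid" or "sterol". Rows that share a first gene symbol were taken as a single gene. There were 35 such genes among 3997 coding genes in the deposited table, which has 7580 rows of all classes.

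RNA of testis, and by its region of seminiferous tubules, was hybridized to GeneChip mouse transcriptome arrays, 1 array for each of 3 wild-type and 4 *Ctcf*-cKO mice aged 12 to 15 weeks. The *Ctcf*-cKO mice carried 1 floxed and 1 excised allele of *Ctcf* together with the *Stra8-iCre* transgene. The wild-type littermates had no excised allele and could be f/f, wt/f or wt/wt at *Ctcf*, and which mouse had which genotype is not given in the sources used here. The methods give the background of all mice as C56BL/6J. The *Stra8* promoter drives Cre in spermatogonia and pre-leptotene spermatocytes, so Cre was not directed at vessel, Leydig or Sertoli cells. The excised allele was bred into the strain, and littermates without Cre could carry it too, so these somatic cells of *Ctcf*-cKO mice had 1 unexcised copy of *Ctcf* where those of wild-type mice had 2. *Ctcf* itself has 0 rows among the rows analysed here, so the deletion could not be checked on these values.

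The deposited values are the authors' averages of the log2 array signal in each genotype, and a difference is given here as the *Ctcf*-cKO average minus the wild-type average on that log2 scale. The table holds 0 columns of single arrays, so no value for a single mouse, no error and no new test between genotypes could be given below. The authors' own p of each row was not used. Precision is limited by how few arrays each average holds. By the authors' own filter, a transcript cluster had to reach a linear fold of 2 and a p of 0.05, before adjustment, to enter the table. Every gene in it had therefore been selected for a difference, and nothing can be said of the level of a gene that is missing from it. In tissue RNA, fewer cells of a type and less RNA per cell cannot be told apart.

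Most vessel genes in the table were higher in *Ctcf*-cKO. Of the 35 genes, 31 (88.6%) were higher and 4 (11.4%) were lower, while among all 3997 coding genes listed, 1547 (38.7%) were higher and 2450 (61.3%) were lower. The higher genes had differences from 1.05 (*Mkl2*) to 1.97 (*Egln1*), with a median of 1.35, a linear fold of 2.55. The median over all higher coding genes in the table was 1.33, a fold of 2.51, and 104 of those 1547 genes had a larger difference than *Egln1*. The median of the higher vessel genes thus lay close to that of all higher genes in the table. Past a linear fold of 3 there were 9 of the 31 higher vessel genes, beside 412 of the 1547 higher coding genes. Of the 4 lower vessel genes 1 (*Apoh*) was past it, beside 318 of the 2450 lower coding genes. Over all 3997 coding genes listed, these were 10.3% higher and 7.96% lower by as much. The 4 lower genes were *Apoh*, *Asb4*, *Vash2* and *Prok2*, with differences from -1.71 to -1.16 and a median of -1.38, against -1.29 over all lower coding genes. The position of 0 bears on these calls: when the median difference of all rows was subtracted, which added 1.14 to every difference, 31 vessel genes were higher and 0 were lower past a fold of 2, with *Apoh* at -0.56, *Asb4* at -0.31, *Vash2* at -0.15 and *Prok2* at -0.01, and the median of the 35 genes went from 1.32 to 2.46. Of all coding genes, 1547 were then higher and 8 lower past that fold. Adding a positive value keeps every higher call and can only remove lower ones, so this direction of change was fixed in advance. The rows were selected for a difference, so their median need not be that of all probes. The subtraction therefore does not decide where 0 lies.

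**Figure D1:**
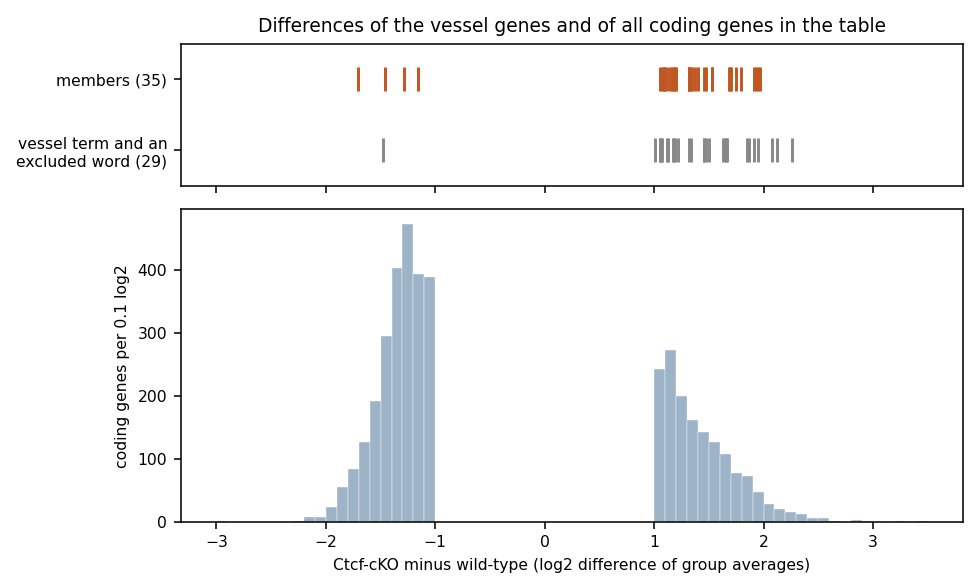
Log2 differences of group averages, *Ctcf*-cKO minus wild-type. The ticks in the upper panel are single genes, the 35 members and the 29 genes that have a vessel term but also an excluded word; the bars in the lower panel count all 3997 coding genes of the table in steps of 0.1. The empty middle is the filter of the table, which lists no gene under a linear fold of 2, and 31 of the 35 member ticks lie on the higher side.

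To show the regulatory sequence of genes that were higher and of one that was lower, the 250 bases upstream of the RefSeq transcription start (build GRCm38.p6, the assembly also known as mm10) are printed 5′ to 3′ on the gene's strand for *Egln1*, which had the largest difference, for the protease gene *Mmp14*, for the lower ligand gene *Prok2* and for the higher ligand gene *Figf*. Capitals in the first 3 mark ACGTG, a form of the core to which hypoxia-inducible factors bind, on either strand. Other forms of this core were not searched or marked. Capitals in *Figf* mark AGATAA, the motif of the GATA factors, which lies here on the opposite strand. The *Egln1* window is chr8:124949255-124949504 (minus strand), that of *Mmp14* chr14:54431348-54431597 (plus strand), that of *Prok2* chr6:99726393-99726642 (minus strand) and that of *Figf*, which RefSeq names *Vegfd*, chrX:164373272-164373521 (plus strand).
Egln1: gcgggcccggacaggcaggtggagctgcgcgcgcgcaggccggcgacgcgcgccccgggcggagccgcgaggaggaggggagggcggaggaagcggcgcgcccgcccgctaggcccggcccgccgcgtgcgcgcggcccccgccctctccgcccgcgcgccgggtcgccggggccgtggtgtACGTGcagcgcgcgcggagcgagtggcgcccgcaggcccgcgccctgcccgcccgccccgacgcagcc
Mmp14: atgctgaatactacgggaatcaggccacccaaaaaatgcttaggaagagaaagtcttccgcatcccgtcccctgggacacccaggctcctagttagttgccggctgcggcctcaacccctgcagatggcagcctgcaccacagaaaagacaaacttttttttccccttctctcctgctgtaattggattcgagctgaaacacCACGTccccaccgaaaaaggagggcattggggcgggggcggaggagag
Prok2: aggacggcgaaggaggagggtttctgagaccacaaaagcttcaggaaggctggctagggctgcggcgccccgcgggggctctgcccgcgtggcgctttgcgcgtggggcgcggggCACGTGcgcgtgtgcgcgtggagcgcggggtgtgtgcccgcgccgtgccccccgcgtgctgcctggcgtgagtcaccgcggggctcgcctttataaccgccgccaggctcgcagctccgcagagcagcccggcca
Figf: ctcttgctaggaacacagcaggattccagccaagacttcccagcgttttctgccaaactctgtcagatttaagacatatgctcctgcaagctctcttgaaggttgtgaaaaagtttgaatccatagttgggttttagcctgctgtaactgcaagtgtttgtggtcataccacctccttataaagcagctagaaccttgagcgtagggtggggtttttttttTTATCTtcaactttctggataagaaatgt

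ACGTG was found in the windows of 8 of the 31 vessel genes that have one in the RefSeq promoter table (25.8%), namely *Amot*, *Anxa2*, *Col1a2*, *Egln1*, *Mmp14*, *Prok2*, *Rnh1* and *Sema3c*, and in 16.6% of all 27025 promoters of the same length. Of these 8 genes 7 were higher and *Prok2* was lower. In *Prok2* the 2 matches are a single CACGTG read on both strands, which is also the motif of E-box factors. The vessel promoters had a median GC content of 62.0%, against 52.0% over all promoters, and ACGTG contains a CpG, whose part in the higher share was not tested. Motifs of the factor families known for endothelial genes were in few windows: CCGGAAG (ETS factors) in 3 vessel genes (9.68%, against 7.05% of all promoters), AGATAA in 2 (6.45%, against 10.3%), TGTTTAC (FOX factors) in 2 (6.45%, against 3.09%) and AACAATG (SOX factors) in 1 (3.23%, against 3.36%). These are letters in a window, searched on both strands, and no binding was measured here.

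Among the genes of secreted ligands, 2 were higher and 1 was lower. *Figf* encodes VEGF-D, a VEGF that acts on the lymphatic endothelium, and by its array row lies on chromosome X from 164373378 to 164402650. The window printed above, placed by the RefSeq start, reaches into this span, and its marked letters lie inside it. *Figf* had an average signal of 6.72 in wild-type against 8.51 in *Ctcf*-cKO, a difference of 1.79 and a linear fold of 3.46. *Sema3c*, a secreted semaphorin that guides axons and vessels, had an average signal of 7.37 in wild-type against 9.06 in *Ctcf*-cKO, a difference of 1.69. *Prok2* encodes prokineticin 2, a peptide that acts through G protein-coupled receptors and is mitogenic for some endothelial cells. It had an average signal of 8.87 in wild-type against 7.71 in *Ctcf*-cKO, a difference of -1.16, the smallest in size among the 4 lower genes.

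All 4 receptor genes were higher in *Ctcf*-cKO. *Npr1*, the guanylyl cyclase receptor of natriuretic peptides that relaxes vessel walls, had an average signal of 8.11 in wild-type against 10.02 in *Ctcf*-cKO, a difference of 1.91. *Plxnd1*, a plexin that semaphorins use to pattern vessels, averaged 7.51 and 9.04, a difference of 1.53. *Bmpr2*, the type II receptor of bone morphogenetic proteins whose human counterpart is mutated in pulmonary arterial hypertension, averaged 7.93 and 9.25, a difference of 1.32. *Cxcr4*, the receptor of the chemokine Cxcl12, had the smallest difference of these receptors, 1.15, from 6.66 to 7.81.

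The largest difference of all vessel genes was that of an oxygen sensor. *Egln1* encodes PHD2, the prolyl hydroxylase that marks the alpha subunits of hypoxia-inducible factors for degradation when oxygen is present, and is itself a known target of these factors. It lies on chromosome 8 from 124908586 to 124949254, on the strand and beside the window printed above, and had an average signal of 7.63 in wild-type against 9.60 in *Ctcf*-cKO, a linear fold of 3.92. *Epas1*, which encodes the hypoxia-inducible factor subunit HIF-2α that is abundant in endothelium, averaged 8.18 and 9.38, a difference of 1.20. The other regulators were *Ndrg2*, which encodes a cytoplasmic protein of the NDRG family and had a difference of 1.95, *Zfp36l1* (1.46), whose product destabilizes mRNAs with AU-rich elements, *Nfe2l2* (1.40), which encodes the oxidative stress factor NRF2, and *Mkl2* (1.05), a coactivator of serum response factor. *Asb4*, which encodes a SOCS box substrate adaptor of ubiquitin ligases, went the other way, from 7.60 in wild-type to 6.14 in *Ctcf*-cKO, a difference of -1.46.

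All 5 genes of the matrix and its proteolysis were higher. *Mmp14*, a membrane-anchored protease that cleaves collagen and activates the secreted protease Mmp2, had an average signal of 7.90 in wild-type against 9.83 in *Ctcf*-cKO, a difference of 1.93 and a fold of 3.81. *Bgn*, the small proteoglycan biglycan, averaged 8.13 and 9.88, a difference of 1.75. *Anxa2*, which gathers plasminogen and its activator at the endothelial surface, had a difference of 1.34, *Sulf2*, an extracellular sulfatase that edits heparan sulfate, one of 1.18, and *Col1a2*, a chain of type I collagen, one of 1.10.

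The 11 genes of small GTPases, their effectors and membrane proteins were all higher, with differences from 1.07 to 1.68 and a median of 1.19. The largest was that of *Anxa3*, a calcium-dependent phospholipid-binding protein, from 6.29 in wild-type to 7.97 in *Ctcf*-cKO. *Myof* (1.47) encodes myoferlin, a protein of membrane fusion and repair, and *Ano6* (1.37) a phospholipid scramblase. The GTPases *Rap1b* (1.32) and *Rras* (1.09), which act on integrins and the endothelial barrier, and the serine-threonine kinase *Rock2* (1.19) lay in the middle and lower part of the group. *Cd59a*, which blocks the membrane attack complex of complement, had a difference of 1.32, *Tmbim1* one of 1.16, *Chm*, a Rab escort protein, one of 1.13, *Pdcl3*, a chaperone-like protein that binds the VEGF receptor Kdr, one of 1.09, and *Amot*, the angiostatin-binding protein angiomotin, one of 1.07. The row of *Amot* has no position in the table.

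The enzymes and soluble inhibitors were divided, with 3 genes higher and 2 lower. *Sat1*, which acetylates polyamines, had an average signal of 6.08 in wild-type against 7.78 in *Ctcf*-cKO, *Xdh*, which makes uric acid, 6.48 and 8.01, and *Rnh1*, the inhibitor of ribonucleases and of angiogenin, 7.54 and 8.89, with differences of 1.70, 1.53 and 1.35. *Apoh*, which encodes the plasma phospholipid-binding protein beta-2-glycoprotein I, had the largest negative difference of the vessel genes, -1.71, from 8.81 to 7.10, a fold of 3.27 lower. *Vash2*, which encodes the tubulin carboxypeptidase vasohibin 2, had an average signal of 8.69 in wild-type against 7.40 in *Ctcf*-cKO, a difference of -1.29. *Apoh* lies on chromosome 11 from 108343354 to 108414396 and *Vash2* on chromosome 1 from 190947646 to 190979296.

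**Figure D2:**
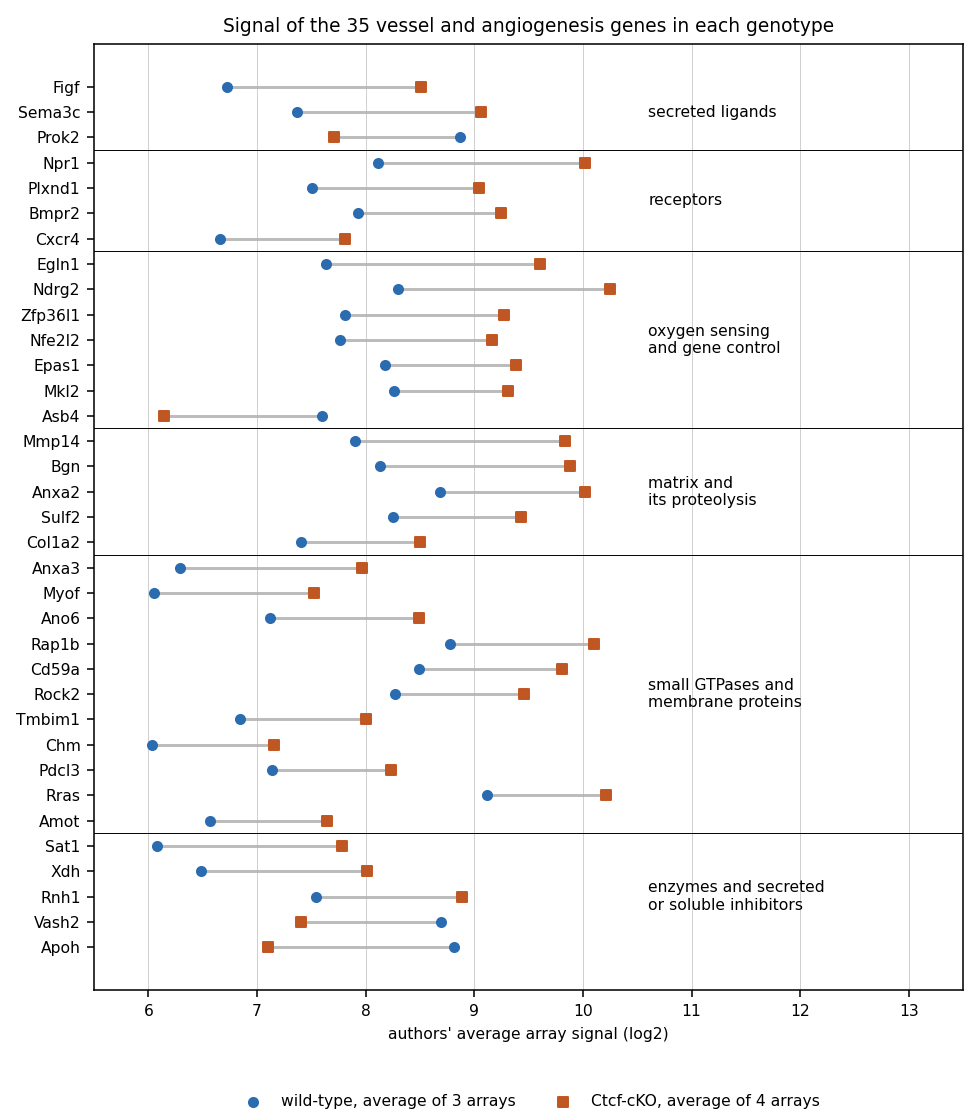
Authors' average array signal on the log2 scale of each of the 35 genes in wild-type (circles, 3 arrays) and *Ctcf*-cKO (squares, 4 arrays), grouped by role; the lines join the averages of a gene, and no error bars can be drawn because values of single arrays are not in the table. The squares lie to the right of the circles in 31 genes and to the left in *Prok2*, *Asb4*, *Vash2* and *Apoh*. Signals of different genes come from different probes and are not comparable with each other.

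The higher genes carried terms of both positive and negative regulation. Of the 9 genes with a term of positive regulation of a vessel process and none of negative regulation, 7 were higher, and of the 5 with negative regulation alone (*Apoh*, *Cd59a*, *Nfe2l2*, *Rock2* and *Xdh*), 4 were higher. *Amot* carries terms of both kinds, and the other 20 genes, 19 of them higher, carry neither. All 12 genes with "blood vessel" in a term and all 7 with "vascular endothelial growth factor" were higher, as were 15 of the 18 with "angiogenesis" and 3 of the 5 with "vasculogenesis". A gene can carry several of these terms, and all these counts are parts of the same 35 genes. Of those 35, 31 (88.6%) were higher, against 1547 (38.7%) of all 3997 coding genes listed. The terms of *Nfe2l2* (negative regulation) and of *Ano6* (positive regulation) concern endothelial cell death, so that for these genes the sign of the term is not that of vessel growth.

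The genes lay on many chromosomes. Of the 31 higher genes 4 (12.9%) were on the X chromosome by the table (*Figf*, *Bgn*, *Sat1* and *Chm*), as were 178 (11.5%) of all higher coding genes. *Amot*, also higher, has no position there and is not counted among the 4, though RefSeq places it on the X chromosome. All 34 positions overlapped the gene of the same identity in the GRCm38.p6 annotation. In 6 higher genes (*Mkl2*, *Ano6*, *Sema3c*, *Nfe2l2*, *Rap1b* and *Rnh1*) a non-coding transcript cluster of its own was listed inside the gene on the same strand. All 6 non-coding clusters were also higher, with differences of 1.06, 1.21, 1.60, 1.67, 1.03 and 1.40 in this order, beside 1.05, 1.37, 1.69, 1.40, 1.32 and 1.35 for the genes. A cluster on the same strand can read the same transcript, so these are not separate observations. *Rock2* was overlapped at its end by the coding gene *Pqlc3* on the opposite strand, which was higher by 1.01.

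The choice by Gene Ontology term left out well-known vessel genes, because the term cell of their row is empty. Of the 3997 coding genes 774 (19.4%) have no biological process in the table, 258 of the higher (16.7%) and 516 of the lower genes (21.1%), and 495 of the 774 carry a gene number of the Entrez database. In lists of 223 genes of vessel signalling compiled from general knowledge, 41 (18.4%) have a row, of which 39 were higher and 2 lower (*Prok2* and *Plxna2*). Only 11 of these 41 are among the 35 genes. The term cell is empty for 16, an excluded word removed 5, and 9 have terms but none on vessels. The median difference of the 41 genes was 1.34, against 1.32 for the 35.

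Several of these genes are partners of the genes above, and were named after their values had been seen. *Kdr*, the main VEGF receptor of endothelium, had an average signal of 5.90 in wild-type against 7.02 in *Ctcf*-cKO, a difference of 1.12, and its co-receptor *Nrp1* had a difference of 1.14. Of the 10 genes of VEGF ligands and receptors sought, *Figf*, *Kdr* and *Nrp1* have a row, while *Vegfa* and *Flt4*, the receptor of VEGF-D, have none. None of the 13 genes of the angiopoietin and Tie list and none of the 12 of the Notch list has a row. The list did not include *Notch2*, a Notch receptor gene that an excluded word removed from the vessel genes, which had a difference of 1.07. *Cxcl12*, the ligand of *Cxcr4*, averaged 5.95 and 7.56, a difference of 1.61. *Edn1*, the vasoconstrictor endothelin, and its receptor *Ednra* had differences of 1.67 and 1.33.

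In the list of TGF-beta and BMP genes, 4 of 20 sought have a row: *Bmpr2*, *Tgfb1*, *Tgfb3* and the co-receptor *Tgfbr3*. The last 3 had differences of 1.10, 1.68 and 1.89. The TGF-beta receptor genes *Tgfbr1* and *Tgfbr2* and the BMP ligand genes sought have no row, so no matched pair of ligand and receptor is shown. *Hif1a*, the widely expressed counterpart of *Epas1*, had an average signal of 8.06 in wild-type against 9.27 in *Ctcf*-cKO, a difference of 1.21 beside 1.20 for *Epas1*. The genes of 3 tissue inhibitors of metalloproteinases were listed beside *Mmp14*. *Timp2* averaged 9.63 and 11.23, a difference of 1.60, and *Timp3* and *Timp1* had differences of 1.20 and 1.00. Beside *Sema3c* and *Plxnd1*, both higher, the semaphorin receptor gene *Plxna2* was lower, from 7.61 to 6.59, a difference of -1.02, which turned to 0.12 when the median of all rows was subtracted.

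**Figure D3:**
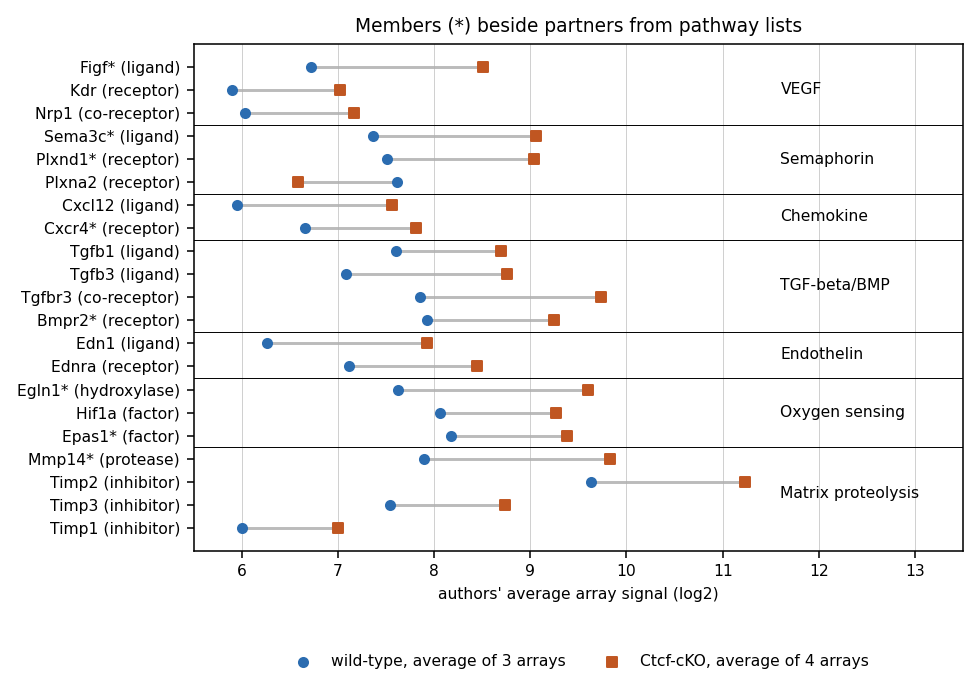
Authors' average array signal on the log2 scale in wild-type (circles, 3 arrays) and *Ctcf*-cKO (squares, 4 arrays) for vessel genes chosen by their terms (asterisks). The others are genes from the pathway lists, grouped by broad signalling system. The square lies to the left of the circle in *Plxna2* (-1.02, or 0.12 with the median of all rows subtracted) and to the right in the others, with differences from 1.00 (*Timp1*) to 1.97 (*Egln1*). The genes were picked after their values were seen.

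The 29 genes removed by an excluded word ran the same way, with 28 higher and 1 lower. The largest differences among them were those of *Vcam1* (2.26), an adhesion molecule of activated endothelium that carries terms of cell adhesion and inflammation, and *Nsdhl* (2.12), an enzyme of cholesterol synthesis. The lower one was *Pde3b* (-1.48), a phosphodiesterase.

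Markers of the endothelium itself were mostly not in the table, and 0 of the 35 genes are on the endothelial list or on any other marker list used. Of 30 endothelial markers 3 have a row, all higher: *Cdh5*, the adherens junction cadherin of endothelium, from 7.21 in wild-type to 8.34 in *Ctcf*-cKO, *Kdr*, given above, and *Cd34*, from 7.37 to 8.78. Their summed linear signal was 373 in wild-type and 893 in *Ctcf*-cKO. Such a sum, here and below, weighs the brightest genes most. *Pecam1*, *Tie1*, *Tek*, *Emcn*, *Vwf* and *Cldn5* were among the 27 without a row. Of 11 markers of mural cells, which wrap the vessels, only *Rgs5* has a row, with a difference of 1.07. The name of the gene group therefore rests on annotation, and the rows analysed here give a value for few of the markers that define vessel cells.

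Markers of other somatic cells were also listed. Of 11 Leydig cell markers 8 have a row, all higher, with differences from 1.39 to 2.97 and a median of 2.00, and their summed linear signal was 7980 in wild-type and 29700 in *Ctcf*-cKO. Of 16 Sertoli cell markers 11 have a row, all higher, with differences from 1.11 to 2.28 and a median of 1.69, and summed signals of 7320 and 23000. Of 12 macrophage markers 5 have a row and were higher, with a median of 1.59 and summed signals of 839 and 2630. Of 9 markers of peritubular myoid cells 5 have a row, 4 higher and 1 lower (*Actg2*, -1.08, or 0.06 with the median of all rows subtracted), with summed signals of 3910 and 5780. *Actg2* was the brightest of the 5 in wild-type, at 11.07, so it weighs most in that sum. The only spermatogonial marker listed of 7 was *Kit*, which Leydig cells also express, with a difference of 2.28. Markers of germ cells ran the other way. Of 8 spermatocyte markers 7 have a row, all lower, with a median of -1.31 and summed signals of 6310 and 2580, and of 12 spermatid markers 6 have a row, all lower, with a median of -1.22 and summed signals of 9050 and 3880. With the median of all rows subtracted, which raises every value, 5 of the 7 and 4 of the 6 remained below 0, and 0 were lower past a fold of 2. Somatic marker signal was thus higher and germ cell marker signal lower in the same arrays in which 31 vessel genes were higher, and the part of this in the values of the vessel genes was not tested. As background, *Col1a2*, *Mmp14*, *Rras* and *Nfe2l2* are known from many kinds of somatic cell besides endothelium.

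**Figure D4:**
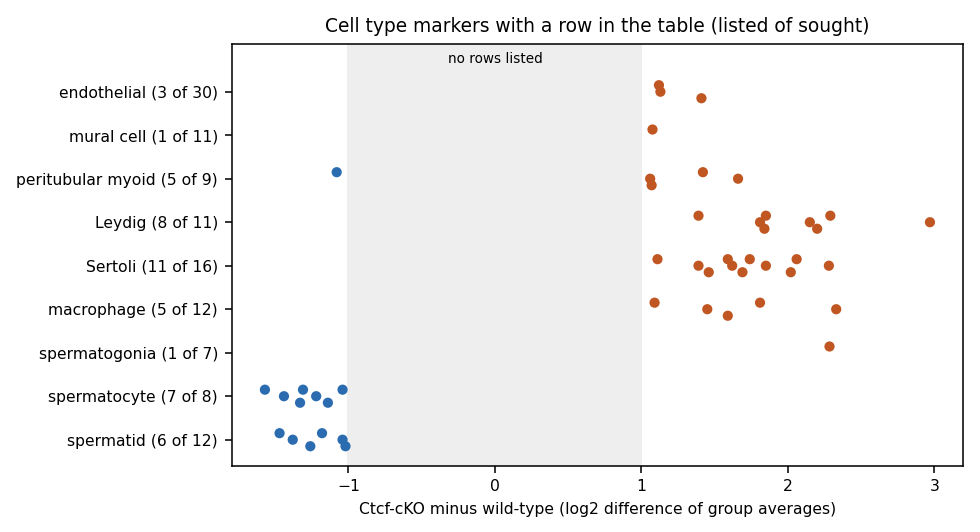
Log2 differences of group averages, *Ctcf*-cKO minus wild-type, of the cell type markers that have a row in the table; each point is a gene, and the label gives the number listed of the number sought. The grey band is the range that the table does not list. Leydig, Sertoli and macrophage markers lie to the right, spermatocyte and spermatid markers to the left, and 3 of 30 endothelial markers are shown.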

How the data were processed

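RNA from 3 wild-type and 4 *Ctcf*-cKO mice was hybridized by the authors to GeneChip mouse transcriptome arrays. The submitters' processing notes name Affymetrix Expression Console 1.4.1, RMA, Transcriptome Analysis Console 3.0 and build mm10. The deposited table gives the authors' bi-weight average of the log2 signal per genotype, another file column the number of probes; it was filtered by the authors at a linear fold of 2 and a p of 0.05. Its columns of fold, p and adjusted p hold the authors' own comparison and were not used. Everything was computed from the averages per genotype, with decimal commas read as points, in python 3.11.15 with numpy 2.4.6, pandas 2.3.3 and matplotlib 3.10.9; linear folds are 2 raised to the log2 difference. The table gives 1 average per genotype and no spread between mice, so no test was run.

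A row was taken as coding where its class was Coding (10 of the 35 genes) or Complex (25). Genes were matched to RefSeq (GRCm38.p6) by gene number or symbol, which gave 35 genes and 31 promoters. The gene group, the lists of pathways and markers, the roles and the ACGTG motif were chosen with earlier results of these data known. The rule for named genes took the members in the pathway lists, the 10 members with the highest and the 10 with the lowest difference, the 5 with the brightest average and the listed endothelial markers, 30 genes in all; the other members and all partners were named outside it, after their values were seen. Alternatives were a linear fold of 3, a minimum log2 signal of 6, subtraction of the median over the table, the class Coding alone, no excluded words, angiogenesis terms alone, the largest row of a gene and, added after the data were seen, the pathway lists. The functions passed 4 of 4 checks on simulated data.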

Additional observations from a re-analysis of the deposited data

How the results depend on the processing

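No paired analysis was possible because the deposited table holds averages per genotype and no values of single mice, and for the same reason leaving out single mice was not run. The counts of 31 higher and 4 lower vessel genes were the same when a log2 signal of 6 was required in the brighter genotype and with the largest row of a gene. The minimum of 6 could not change them, because all 35 genes averaged at least 6 in both genotypes. With a linear fold of 3 there were 9 higher and 1 lower. Subtracting the median over all rows added 1.14 to every log2 difference, which left 31 higher and 0 lower genes past a fold of 2 and a median of 2.46. Such a positive shift keeps every higher call and can only remove lower ones. The rows are a selection, so their median need not be that of all probes. With the class Coding alone there were 7 higher and 3 lower genes and a median of 1.12; fewer genes are counted, and 3 of the 4 lower genes are of this class. Without the excluded words there were 59 higher and 5 lower genes and a median of 1.34, and with angiogenesis terms alone 15 and 3 and a median of 1.32. The pathway lists, an alternative chosen after seeing the data, gave a median of 1.34. Of the endothelial markers, 3 were higher and 0 lower, and 0 were past a fold of 3. *Kdr* (1.12) and *Cdh5* (1.13) lay near the limit of the table, and *Cd34* had a difference of 1.41. Among the genes named in the text, subtracting the median turned *Plxna2* to 0.12 and *Actg2* to 0.06 and turned no other sign, with *Prok2* at -0.01; the genes outside the naming rule were added to this alternative after seeing the data.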
